A study of Mus musculus with 5 samples.

Results

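Aminoacyl-tRNA synthetases are the enzymes that load each transfer RNA with its amino acid. Their transcripts were followed here in hair follicle stem cells sorted from mouse back skin. The members are the protein-coding genes of the deposited table whose symbol is an amino acid letter followed by "ars" with an optional 1 or 2, together with Farsa, Farsb and Fars2. This rule finds 36 genes among 55357 rows, of which 19 were taken as cytosolic and 17, whose symbols end in 2, as mitochondrial. All 36 had enough reads to be tested. The letters of the rule do not match Eprs or Tarsl2, so these are given apart, and the scaffold genes Aimp1, Aimp2 and Eef1e1 are left out by the rule itself and are likewise given apart.

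The cells came from skin taken at postnatal day 75, and hair follicle stem cells were sorted as CD34-positive, EpCAM-positive, Sca1-negative cells with high α6-integrin. Mice of both groups were Ring1a-/-, Ring1bflox/flox and were treated on the skin with 1% RU-486 for 10 days from postnatal day 50. The 3 PRC1 i2KO libraries also carried K15-CrePR1, a Cre recombinase under a keratin 15 promoter that RU-486 switches on, whereas the 2 Control libraries had no Cre. Ring1a and Ring1b are the catalytic subunits of the Polycomb complex PRC1, so the controls already lacked one of them, and the comparison is between cells with and without Cre on that background. Only cells in which the keratin 15 promoter was active can have recombined. The labels do not name the animals behind the libraries, so p-values measure only the spread between these libraries, which may be technical.

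In animal cells the cytosolic synthetases serve translation on ribosomes of the cytoplasm, and a second set, encoded in the nucleus and imported, serves translation inside mitochondria. Several cytosolic enzymes are held together by scaffold proteins in a multisynthetase complex, while the others act free of it. Transcription of many cytosolic synthetase genes is known to respond to ATF4, a transcription factor of the amino acid response, and to MYC.

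Library totals ran from 8270419 to 32463173 estimated reads. CPM below are reads scaled to library size, with TMM factors, and values are given for Control replicates 1 and 3 and then PRC1 i2KO replicates 1, 2 and 3. Rnf2, which encodes Ring1b, had 67.9 and 57.7 CPM and then 48.1, 46.6 and 50.2 CPM (log2 fold change -0.37, SE 0.12, edgeR adjusted p = 0.0363), a call lost without Control replicate 1 (0.251) and without replicate 1 or 2 of PRC1 i2KO (0.0993 and 0.118). Ring1, which encodes Ring1a, had 30.3 and 27.5 CPM and then 19.6, 28.6 and 24.8 CPM and was not called (0.36). Reads over a whole gene do not check the deletion of a part of it. Cd34, which encodes a surface protein the cells were sorted for, went against that gate in PRC1 i2KO, with 1550 and 1700 CPM and then 11, 12.3 and 37.2 CPM. It fell 79.3-fold (log2 fold change -6.31, SE 0.72, edgeR adjusted p = 0.00653), a call lost without either control (up to 0.0567). With Cd34, 7 of 9 listed bulge genes were lower in PRC1 i2KO (summed 30900 to 35200 CPM in Control and 13700 to 19100 CPM in PRC1 i2KO). All 8 sebaceous gland markers rose (summed 241 to 252 CPM and 2620 to 3310 CPM), as did 8 of 8 suprabasal markers (1170 to 1180 CPM and 2320 to 3560 CPM), 7 of 8 of the upper follicle and interfollicular epidermis (579 to 811 CPM and 8340 to 8540 CPM) and 8 of 8 of cycling cells (42.7 to 56.6 CPM and 437 to 623 CPM). Immune markers summed to 25.8 to 32.4 CPM in Control and 80.7 to 117 CPM in PRC1 i2KO (2 of 5 tested rose), and fibroblast markers to 71.9 to 73.8 CPM and 33 to 33.2 CPM (1 of 4 rose, 3 fell). Endothelial and muscle markers summed to no more than 6.26 CPM in any library. Of 6 tested melanocyte markers Dct, Kit and Sox10 rose and Mitf fell. The summed melanocyte level of 157 to 170 CPM and 72.4 to 78.5 CPM follows Mitf, at 163 and 151 CPM and then 39.1, 41.2 and 41 CPM, whereas Dct went from 1.6 and 1.99 CPM to 17.4, 17 and 12.9 CPM. No listed marker was at 0 reads in all libraries. These markers move with the genotype, and their part in the results on synthetase genes was not tested. In such bulk libraries a change in the make-up of the sorted cells and a change of RNA within each cell cannot be told apart.

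Most synthetase transcripts lay a little higher in PRC1 i2KO than in Control, and few moved far. Of the 36 genes, 9 rose, 1 fell and 26 did not pass, taking an adjusted p below 0.05 in the quasi-likelihood test of edgeR. The share called was 27.8%, against 33.9% of all 15665 tested genes, so the number of calls is not above the background. Calls in the upward direction made up 18.8% of all tested genes and calls in the downward direction 15.1%. The fitted log2 fold change was above 0 in 31 of the 36 genes (86.1%) and in 49.6% of all tested genes, with a median of 0.24 among the members and -0.01 over all tested genes. Only Vars passed 2-fold, 1 of 36 (2.78%), compared with 26.3% of all tested genes and 17.7% of the 11254 tested genes with mean levels between the lowest and highest member. In 21 genes every PRC1 i2KO library was above both controls and in 2 every one was below them, together 63.9% of the members; of all tested genes 59.5% were so separated, 30.0% upward and 29.4% downward. These counts and medians describe the list and were not tested as a set.

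**Figure D1:**
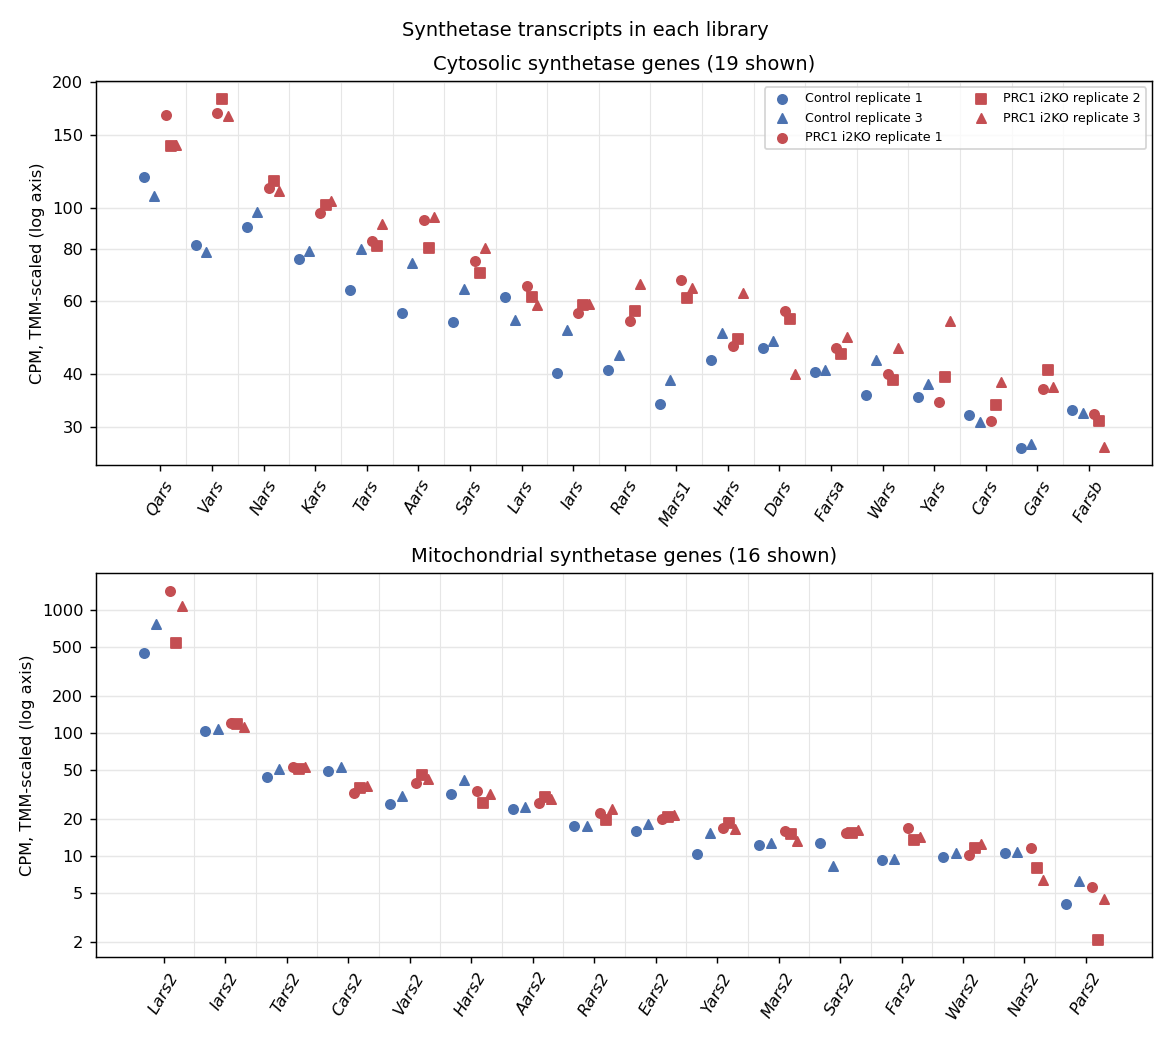
TMM-scaled CPM (log axis) of the 19 cytosolic genes above and 16 of the 17 mitochondrial genes below, ordered by level; each point is 1 library, blue for Control, red for PRC1 i2KO, with the shape giving the replicate number. Red points lie clear above the blue ones for Vars and Mars1 and clear below them for Cars2, and Lars2 spreads from 449 to 1440 CPM.

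Among the cytosolic genes 7 of 19 rose, none fell and 12 did not pass (median log2 fold change 0.26). The share called was 36.8%, near the 33.9% of all tested genes called in either direction, of which 18.8% were called higher. DESeq2 also called 7 higher and 0 lower, and at an unadjusted p under 0.05 edgeR had 10 higher and 0 lower. Of all 15665 tested genes 3642 were higher and 3141 lower at that unadjusted p. Without Control replicate 1 the count that rose was 3, without Control replicate 3 it was 4, and in the 3 deepest libraries (Control replicate 3 with PRC1 i2KO replicates 2 and 3) it was 2. Such fits leave a single control, which is assumed to vary like the PRC1 i2KO libraries. Over all tested genes, too, fewer rose in these fits. In each of them Vars and Mars1 were called.

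Vars (ENSMUSG00000007029), the valyl-tRNA synthetase that binds elongation factor 1, had the largest change of all members. The controls had 81.6 and 78.5 CPM, and the PRC1 i2KO libraries 169, 183 and 166 CPM. Every PRC1 i2KO library was thus above both controls, with a wide gap between the groups. The means were 80.1 ± 2.19 CPM (SD, n = 2) and 173 ± 9.48 CPM (SD, n = 3), a 2.16-fold rise (log2 fold change 1.11, SE 0.10, edgeR adjusted p = 4.24e-05). The rise was called whichever library was left out, with log2 fold changes from 1.07 to 1.14.

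Mars1 (ENSMUSG00000040354) encodes the methionyl-tRNA synthetase, which also charges the initiator tRNA. Its level was 34 and 38.7 CPM in Control and 67.2, 61 and 64.4 CPM in PRC1 i2KO, so the groups did not overlap. It rose 1.76-fold (log2 fold change 0.81, SE 0.12, edgeR adjusted p = 0.000745), and this call too was made without any 1 library (adjusted p from 0.000413 to 0.00714).

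The other 5 rises were smaller, between 1.31-fold and 1.43-fold, and each was lost without some library. Gars, the glycyl-tRNA synthetase, stood at 26.7 and 27.2 CPM in Control and 36.9, 41.1 and 37.3 CPM in PRC1 i2KO (log2 fold change 0.51, SE 0.14, edgeR adjusted p = 0.0162). Kars, the lysyl-tRNA synthetase, stood at 75.6 and 78.8 CPM and at 97.6, 102 and 104 CPM (log2 fold change 0.39, SE 0.10, edgeR adjusted p = 0.0126). Both of these enzymes are known to be made in a cytosolic and a mitochondrial form from the same gene, so their transcripts serve both compartments. Qars, the glutaminyl-tRNA synthetase, had 119 and 107 CPM in Control and 167, 141 and 142 CPM in PRC1 i2KO (log2 fold change 0.40, SE 0.12, edgeR adjusted p = 0.0233). Rars, the arginyl-tRNA synthetase, had 40.9 and 44.5 CPM and then 53.6, 56.7 and 65.9 CPM (log2 fold change 0.46, SE 0.13, edgeR adjusted p = 0.023). In all 4 genes the lowest PRC1 i2KO library was above the higher control. Aars, the alanyl-tRNA synthetase, was at 56.1 and 73.8 CPM in Control and 93.7, 80.1 and 95.5 CPM in PRC1 i2KO (log2 fold change 0.46, SE 0.14, edgeR adjusted p = 0.0302), with the 2 controls further apart than in the other called genes and its change down to 0.28 without Control replicate 1.

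Leaving out Control replicate 1 ended the calls of Aars (edgeR adjusted p = 0.218), Gars (0.0761), Kars (0.0863) and Rars (0.122). Leaving out Control replicate 3 ended those of Gars (edgeR adjusted p = 0.0807), Kars (0.0676), Qars (0.178) and Rars (0.0702). Without PRC1 i2KO replicate 1 the calls of Aars (edgeR adjusted p = 0.0908) and Qars (0.0779) were lost, and without PRC1 i2KO replicate 2 those of Gars (0.0641) and Rars (0.0539).

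The 12 cytosolic genes that did not pass had log2 fold changes from -0.12 to 0.34, with adjusted p from 0.0545 to 0.751. Nearest to the threshold was Sars, the seryl-tRNA synthetase, at 53.4 and 64.2 CPM in Control and 74.8, 69.9 and 80.1 CPM in PRC1 i2KO (log2 fold change 0.34, SE 0.12, edgeR adjusted p = 0.0545), which was called with median-ratio size factors (0.0469), library totals (0.0429), no filter (0.0343) or a stricter filter (0.0475). Nars (asparagine) and Iars (isoleucine) followed, at log2 fold changes of 0.26 and 0.33 (edgeR adjusted p = 0.07 and 0.0794). Nars was called without PRC1 i2KO replicate 3 (edgeR adjusted p = 0.0354) and Iars without Control replicate 3 (0.0455). The log2 fold change was 0.24 for Tars (threonine), 0.22 for Yars (tyrosine), 0.20 for Farsa, 0.17 for Hars (histidine), 0.14 for Cars (cysteine), 0.10 for Lars (leucine), 0.09 for Dars (aspartate) and 0.07 for Wars (tryptophan). Farsb alone among the cytosolic genes had a fitted value below 0 (log2 fold change -0.12, edgeR adjusted p = 0.551), at 32.9 and 32.4 CPM in Control and 32.2, 30.9 and 26.8 CPM in PRC1 i2KO. Farsa and Farsb encode the catalytic and the other chain of the same phenylalanyl-tRNA synthetase, and their 95% intervals of -0.07 to 0.47 and -0.45 to 0.20 overlapped.

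**Figure D2:**
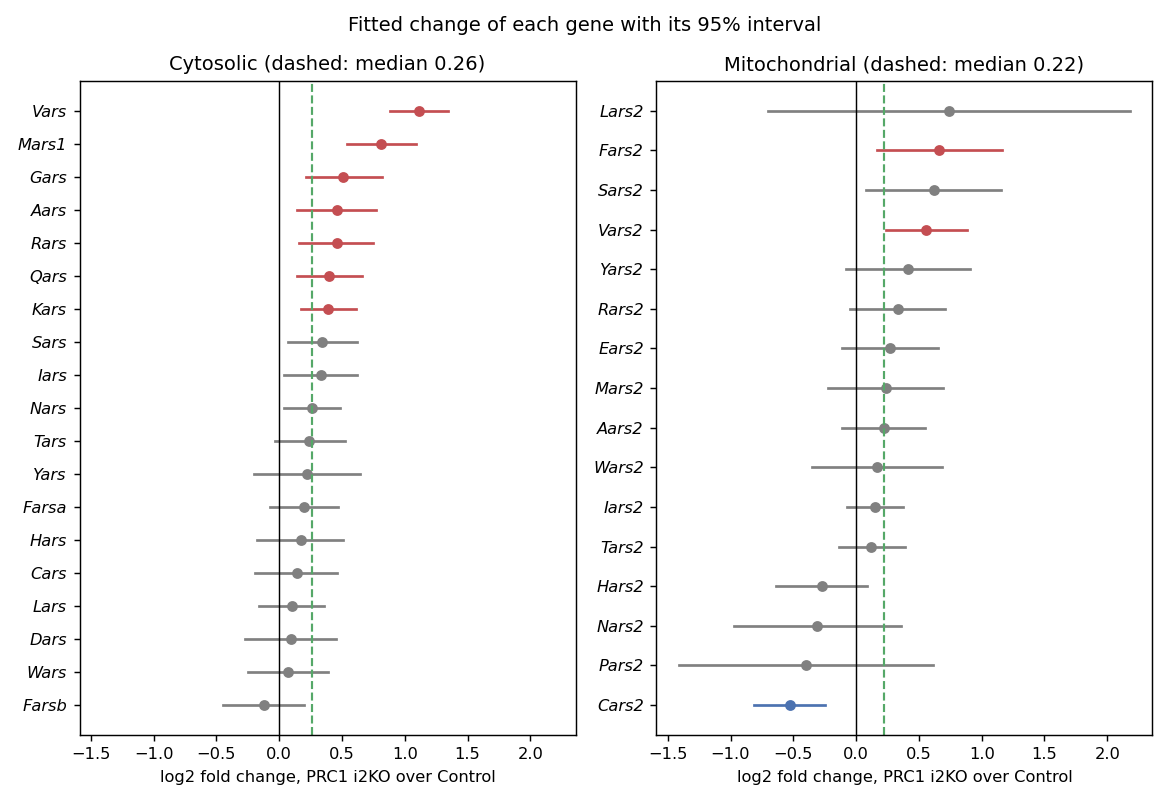
Fitted log2 fold change of PRC1 i2KO over Control (horizontal axis) for each cytosolic gene on the left and 16 of the 17 mitochondrial genes on the right; lines are 95% intervals, red marks genes called higher, blue the gene called lower, grey those not called. The dashed medians over all 19 and all 17 genes, 0.26 and 0.22, lie close together, while the interval of Lars2 runs from -0.70 to 2.18.

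Of the 19 cytosolic enzymes 7 belong to the multisynthetase complex, a grouping taken from textbook knowledge after the values had been seen. Its genes Mars1, Qars, Rars and Kars rose and Iars, Lars and Dars did not pass, with a median log2 fold change of 0.39. Of the 12 enzymes outside it, Vars, Gars and Aars rose, and the median was 0.23. Summed over the 7 genes, the level was 418 and 422 CPM in Control and 563, 535 and 533 CPM in PRC1 i2KO, and over the 12 others it was 592 and 657 CPM and then 800, 808 and 857 CPM. By the architecture of the catalytic domain, 4 of 9 class I cytosolic enzymes and 3 of 10 class II enzymes rose (median log2 fold change 0.33 and 0.25). Over all tested genes 18.8% rose. In CPM both sums, over the complex and over the other enzymes, were higher in every PRC1 i2KO library than in either control. In TPM, which divides by transcript length, the sum over the 12 others overlapped between the groups. It was 542 and 616 TPM in Control and 598, 628 and 707 TPM in PRC1 i2KO. Over the 7 genes it was 460 and 401 TPM and then 512, 500 and 504 TPM, without overlap. The difference between the groups of enzymes was not tested.

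Of the 4 other parts of the complex 2 rose and 2 did not pass, where 18.8% of all tested genes rose. Aimp1 and Aimp2, scaffold proteins that hold the enzymes together, rose. Aimp1 went from 32.1 and 36.3 CPM to 45.8, 56.6 and 50.4 CPM (log2 fold change 0.57, SE 0.14, edgeR adjusted p = 0.0109), and Aimp2 from 12.9 and 13.3 CPM to 20, 18.7 and 22.8 CPM (log2 fold change 0.64, SE 0.19, edgeR adjusted p = 0.0245). The call of Aimp1 was lost without Control replicate 1 (edgeR adjusted p = 0.0739). That of Aimp2 was lost without either control (edgeR adjusted p = 0.101 and 0.106) and without replicate 1 or 3 of PRC1 i2KO (0.0508 and 0.0538). Eef1e1, the third scaffold protein, stood at 7.38 and 7.25 CPM and at 11.1, 13.9 and 10.8 CPM, just outside the threshold (log2 fold change 0.71, SE 0.25, edgeR adjusted p = 0.0529, and 0.0267 by DESeq2). Eprs, the enzyme of the complex that charges both glutamate and proline tRNAs, was not called, at 139 and 174 CPM in Control and 179, 185 and 172 CPM in PRC1 i2KO, with overlapping groups (log2 fold change 0.19, edgeR adjusted p = 0.258).

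The 17 mitochondrial genes gave 2 rises and 1 fall, and 14 did not pass (median log2 fold change 0.22, and 13 of 17 fitted values above 0). The share called was 17.6%, below the 33.9% of all tested genes. Vars2 (ENSMUSG00000038838), the mitochondrial valine enzyme, stood at 26.5 and 30.7 CPM in Control and 39.1, 45.6 and 42.2 CPM in PRC1 i2KO (log2 fold change 0.56, SE 0.14, edgeR adjusted p = 0.0132). Fars2 (ENSMUSG00000021420), a single-chain phenylalanine enzyme, stood at 9.35 and 9.36 CPM and at 16.8, 13.5 and 14.3 CPM (log2 fold change 0.66, SE 0.22, edgeR adjusted p = 0.0422). In CPM neither gene overlapped between the groups, which was so for 59.5% of all tested genes. In TPM Fars2 did not overlap either, but Vars2 did, at 22.2 and 32.2 TPM in Control and 27.1, 36.6 and 45.5 TPM in PRC1 i2KO. The call of Vars2 was lost without Control replicate 1 (edgeR adjusted p = 0.0922) or PRC1 i2KO replicate 2 (0.0557), and that of Fars2 without either control (0.134 and 0.16) and without replicate 1 or 2 of PRC1 i2KO (0.111 and 0.0679). Without Control replicate 1, and likewise without PRC1 i2KO replicate 2, neither rise was called, nor was either in a fit of the 3 deepest libraries.

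Cars2 (ENSMUSG00000056228), the mitochondrial cysteinyl-tRNA synthetase, which is also known for making cysteine persulfides, was the only member that fell. The controls had 49 and 52.8 CPM and the PRC1 i2KO libraries 32.5, 35.9 and 37 CPM, so that every PRC1 i2KO library was below both controls. The means were 50.9 ± 2.73 CPM (SD, n = 2) and 35.1 ± 2.31 CPM (SD, n = 3), and the log2 fold change was -0.53 (SE 0.13, edgeR adjusted p = 0.00896). The call was lost without Control replicate 3 (edgeR adjusted p = 0.0819) and in the 3 deepest libraries (0.0998). The cytosolic gene Cars stood at 32 and 30.8 CPM and at 30.9, 33.8 and 38.4 CPM (log2 fold change 0.14, edgeR adjusted p = 0.521).

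Lars2 (ENSMUSG00000035202), the mitochondrial leucine enzyme, stood apart from the rest of the members in its level and in its spread. In TPM, which divides by transcript length, it had 216 and 374 in Control and 609, 233 and 475 in PRC1 i2KO, the highest value of the 36 genes in each library. No other mitochondrial gene exceeded Cars2 at 61.4 TPM. Its CPM values were 449 and 769 in Control and 1440, 545 and 1070 in PRC1 i2KO, so the groups overlapped and PRC1 i2KO replicate 2 lay below Control replicate 3. The log2 fold change was 0.74 with an SE of 0.52 (edgeR adjusted p = 0.361), and without PRC1 i2KO replicate 2 it was 1.05 and called (0.0405). Lars2 made up 39.8% to 64.9% of the summed mitochondrial TPM, so sums over the mitochondrial genes are given without it below.

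The remaining mitochondrial genes did not pass, with log2 fold changes from -0.40 to 0.62. Sars2 (serine) stood at 12.7 and 8.3 CPM in Control and 15.5, 15.5 and 16.3 CPM in PRC1 i2KO (log2 fold change 0.62, SE 0.24, edgeR adjusted p = 0.0747), and was called without Control replicate 1 (0.0386). Aars2, Ears2, Iars2, Mars2, Rars2 and Yars2 also had every PRC1 i2KO library above both controls in CPM, at log2 fold changes from 0.15 (Iars2) to 0.41 (Yars2) and adjusted p of at least 0.174. In either direction 58.8% of the 17 mitochondrial genes were so separated, near the 59.5% of all tested genes. In TPM only Ears2 of these genes stayed separated, and Aars2 had a log2 fold change of -0.29. Tars2 and Wars2 had log2 fold changes of 0.12 and 0.17 with overlapping groups. Hars2 (log2 fold change -0.27), Nars2 (-0.31) and Pars2 (-0.40) were the mitochondrial members besides Cars2 with fitted values below 0, and in all 3 the groups overlapped. Pars2 was the member with the fewest reads, 33 in Control replicate 1, and its 95% interval ran from -1.41 to 0.61.

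Per transcript length the cytosolic genes were the more abundant set. Their median was 41.7 and 41.9 TPM in Control and 42.2, 41.5 and 48.6 TPM in PRC1 i2KO, and the mitochondrial median was 16.1 and 18.5 TPM and then 15.8, 20.3 and 18 TPM. Qars was the highest cytosolic gene in every library (142 to 232 TPM) and Mars2 the lowest mitochondrial one (1.88 to 2.11 TPM). Summed CPM of the cytosolic genes was 1010 and 1080 in Control and 1360, 1340 and 1390 in PRC1 i2KO, and of the mitochondrial genes without Lars2 it was 396 and 435 and then 459, 449 and 451. The ratio of these sums was 2.55 and 2.48 in Control and 2.97, 2.99 and 3.08 in PRC1 i2KO. With summed TPM in place of CPM the ratio was 3.07 and 2.62 in Control and 3.37, 3.38 and 3.31 in PRC1 i2KO. On both scales the ratio was higher in every PRC1 i2KO library than in either control. With Lars2 included the TPM ratio overlapped between the groups (1.85 and 1.33 against 1.18, 1.99 and 1.44). The cytosolic sums hold Gars and Kars in full, although their transcripts serve both compartments.

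For 15 amino acids both a cytosolic and a mitochondrial gene were members, which with Farsa and Farsb each set against Fars2 makes 16 pairs. The fitted change had the same sign in 12 pairs, all upward, and was larger for the cytosolic gene in 9. Vars and Vars2 were the only pair in which both genes were called. Cars and Cars2 differed most in favour of the cytosolic gene (a difference of 0.67 in log2 fold change), followed by Mars1 and Mars2 (0.58), Nars and Nars2 (0.57) and Vars and Vars2 (0.55). Farsb and Fars2 differed most the other way (-0.79). Across the 16 pairs the changes were close to unrelated (Pearson r = 0.12, Spearman rho = 0.01); the pairs share the same libraries, so this is a description only.

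**Figure D3:**
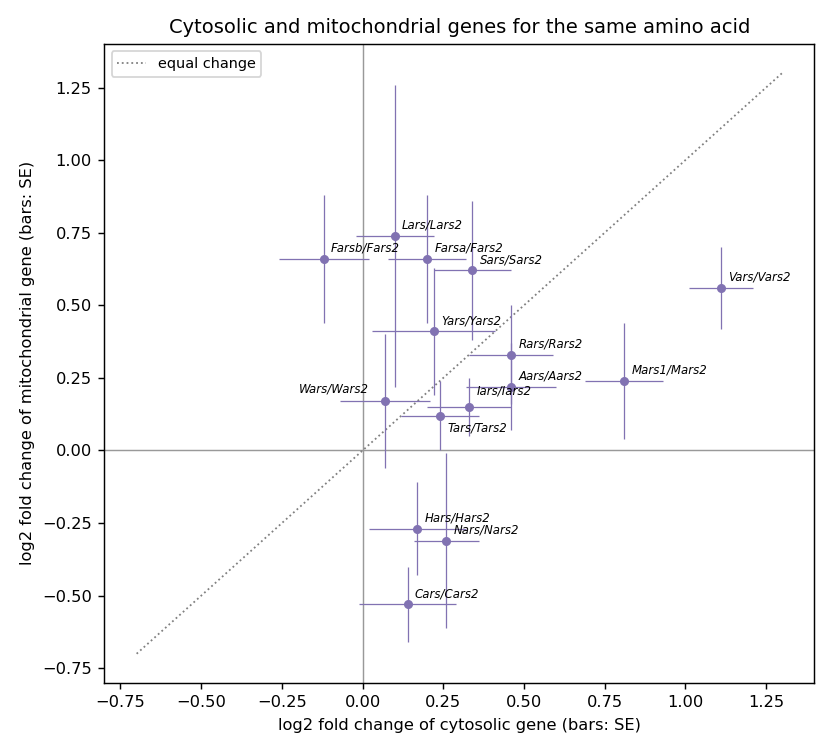
Log2 fold change of the cytosolic gene (horizontal axis) against that of the mitochondrial gene for the same amino acid (vertical axis), 1 point per pair for 15 of the 16 pairs, bars giving the SE of each; the dotted line marks equal change. Vars/Vars2 is high on both axes, and Cars/Cars2, Hars/Hars2 and Nars/Nars2 lie below 0 for the mitochondrial gene only.

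The deposited TPM gave smaller changes and fewer calls. On log2(TPM + 1) the median of all tested genes shifted by -0.13, and the members' median was 0.07, or 0.20 above that shift, against 0.25 above the median of all genes on counts. Relative to the shift 28 of the 36 members lay higher, and relative to 0, 22 did. Vars was the only gene called higher (limma adjusted p = 0.018), at 55.6 and 72.7 TPM in Control and 96, 133 and 114 TPM in PRC1 i2KO. Cars2 was the only gene called lower (limma adjusted p = 0.00991), at 59.1 and 61.4 TPM and then 30.8, 35.8 and 38.1 TPM. Mars1 had 25.2 and 25.8 TPM in Control and 37.3, 33.4 and 55.4 TPM in PRC1 i2KO, with no overlap, and did not pass (limma adjusted p = 0.0712). For Lars and Aars2 the direction differed between the scales, with log2 fold changes of 0.10 and 0.22 on counts and -0.33 and -0.29 on TPM, none of them called.

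**Figure D4:**
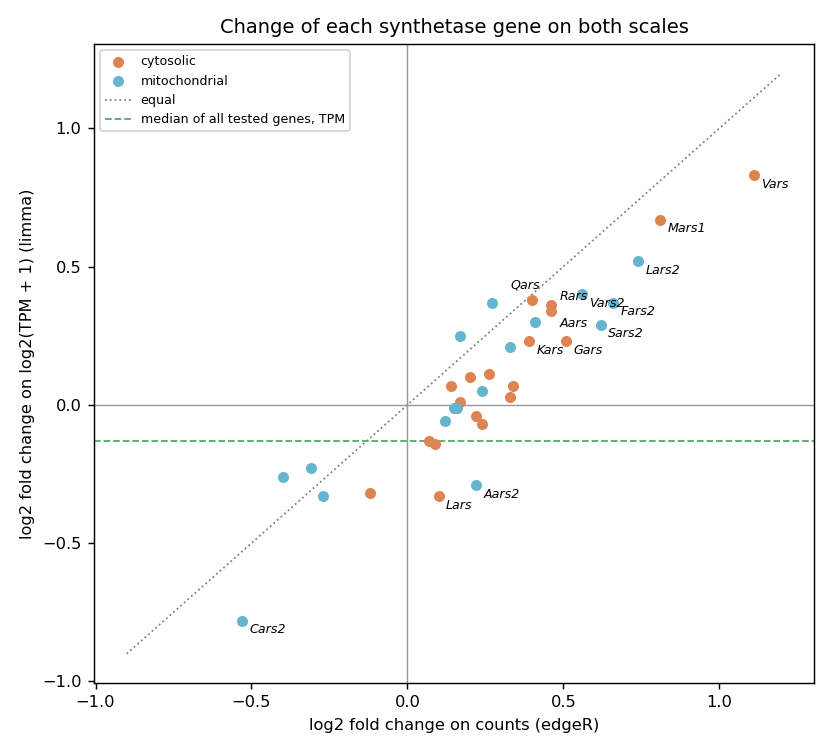
Log2 fold change of each member on counts (horizontal axis, edgeR) against that on log2(TPM + 1) (vertical axis, limma), cytosolic genes in orange and mitochondrial ones in blue; the dotted line marks equal values and the dashed line the median of all tested genes on TPM, -0.13. Most points lie below the dotted line, and Vars, Mars1 and Cars2 keep the outer positions on both scales.

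Promoters of the members were searched for 2 motifs because both kinds of factor are known to act on synthetase genes. TGATGNAA is the element bound by pairs of C/EBP and ATF proteins, ATF4 among them, and CACGTG is the E-box bound by MYC with MAX. RefSeq promoter windows of build GRCm38.p6, each from 250 bases before to 50 after the transcript start, were matched for 26 of the 36 genes; each motif was searched on both strands, and the motifs do not overlap each other in the sequences shown. TGATGNAA was found in 5 of the 26 (19.2%) and in 4.51% of the 27025 genes with such windows. All 5 were cytosolic genes, of 12 matched (41.7%), and 0 of 14 mitochondrial genes had it. Of the 5, Aars and Gars had risen in PRC1 i2KO, and Iars, Tars and Yars did not pass. The windows of Mars1, Kars and Qars, which also rose, did not hold these letters, and Vars and Rars had no window. CACGTG was found in Aars, Farsb, Iars, Tars and Ears2 (19.2% of the 26, against 8.09% of all genes). The 5 matches of the first motif below are shown because the motif was found in some cytosolic windows and in no mitochondrial one, and the 3 E-boxes because they stand in the same promoters; capitals mark the motif, in the 5′ to 3′ direction of the gene.
Aars, chr8:111033840-111033869, + strand: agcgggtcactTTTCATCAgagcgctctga
Gars, chr6:55037960-55037989, + strand: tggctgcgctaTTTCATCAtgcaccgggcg
Iars, chr13:49682126-49682155, + strand: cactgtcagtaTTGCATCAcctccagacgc
Tars, chr15:11399655-11399684, - strand: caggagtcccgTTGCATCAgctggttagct
Yars, chr4:129189895-129189924, + strand: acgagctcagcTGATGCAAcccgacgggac
Aars E-box, chr8:111033685-111033712, + strand: gtcaaccctgtCACGTGacactccatgt
Iars E-box, chr13:49682050-49682077, + strand: accaatcgccaCACGTGttgtttgtagg
Tars E-box, chr15:11399623-11399650, - strand: ccgcctgtggcCACGTGgcgcacgcgca

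In 4 of these 5 matches the motif runs on the strand opposite to the gene, as TTGCATCA or TTTCATCA, and in Yars it reads TGATGCAA along the gene. The matches describe letters in the windows, and no binding was measured in these libraries.

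Of 21 tested genes of the amino acid response to ATF4, 11 rose, 1 fell and 9 did not pass (median log2 fold change 1.12), where 18.8% of all tested genes rose and 15.1% fell. No test compared this list, or those below, with the synthetases. Psph, Psat1 and Phgdh, the enzymes of serine synthesis, rose 3.46-fold, 3.33-fold and 2.12-fold. Psph stood at 15.1 and 15.5 CPM in Control and 50.2, 57.1 and 51.4 CPM in PRC1 i2KO (edgeR adjusted p = 1.5e-05), Psat1 at 30.9 and 22 CPM and then 91.5, 92.5 and 76.3 CPM (5.77e-05), and Phgdh at 52.2 and 57.9 CPM and then 130, 116 and 106 CPM (0.000129). Slc7a5, a transporter of leucine and other large amino acids, rose 2.77-fold, from 28.4 and 23.7 CPM to 76.5, 70.8 and 67.8 CPM (edgeR adjusted p = 3.67e-05). The list went both ways at its ends: Chac1, which degrades glutathione, fell (log2 fold change -2.30, SE 0.66, edgeR adjusted p = 0.0238), a call lost when either control or PRC1 i2KO replicate 2 was left out. Atf4 itself stood at 371 and 256 CPM in Control and 328, 334 and 300 CPM in PRC1 i2KO (log2 fold change 0.04, not called, edgeR adjusted p = 0.88). Chac1 and Atf4 are named after their values were seen.

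Of 8 genes for the kinases and phosphatase that act on eIF2α, upstream of ATF4, 1 fell and 7 did not pass, with 0 rises by edgeR or DESeq2; at an unadjusted p under 0.05, 2 were higher and 4 lower. The gene that fell was Impact, an inhibitor of the kinase that senses uncharged tRNA, at 53.5 and 45.7 CPM in Control and 29.4, 28.9 and 28.2 CPM in PRC1 i2KO (log2 fold change -0.78, SE 0.13, edgeR adjusted p = 0.00154). That kinase, Eif2ak4, stood at 40 and 40.7 CPM and at 32.4, 33.1 and 29.5 CPM (log2 fold change -0.35, edgeR adjusted p = 0.0652). When either control or PRC1 i2KO replicate 3 was left out, 1 of these genes rose, and in the last of these fits 2 fell.

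In the MYC network 4 of 10 tested genes rose and 2 fell, beside the 18.8% and 15.1% of all tested genes. Mycl, a member of the MYC family, rose 5.77-fold, from 7.88 and 4.82 CPM to 30.2, 36.1 and 38.3 CPM (edgeR adjusted p = 5e-05). Mycn, of the same family and named after its values were seen, rose 8.13-fold (edgeR adjusted p = 0.00285). It had 4.18 and 2.92 CPM and then 22.6, 17.7 and 42.6 CPM, and its call was lost without Control replicate 3. Mxd1 and Mxd3, which compete with MYC for MAX, rose to means of 49.2 and 5.25 CPM from 26.9 and 0.341 CPM, while Mxd4, of the same family, fell from 281 and 276 CPM to 143, 139 and 161 CPM (edgeR adjusted p = 0.000132). Myc had 499 and 247 CPM in Control and 596, 570 and 403 CPM in PRC1 i2KO, with overlapping groups (log2 fold change 0.49, edgeR adjusted p = 0.361; named after its values were seen). The number that fell was 1 when either control, or replicate 1 or 2 of PRC1 i2KO, was left out.

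Of 24 genes of RNA polymerase III and its factors, which make tRNA, 1 rose, 2 fell and 21 did not pass (median log2 fold change -0.07; 18.8% of all tested genes rose and 15.1% fell). Polr3gl, the subunit form of resting cells, fell from 28.6 and 26.6 CPM to 12.7, 11.6 and 16 CPM (log2 fold change -1.03, SE 0.19, edgeR adjusted p = 0.00243), whereas its counterpart Polr3g, named after its values were seen, had a log2 fold change of -0.40 and was not called (edgeR adjusted p = 0.165). Polr1d rose (log2 fold change 0.49, edgeR adjusted p = 0.0118; lost without Control replicate 3), and the fall of Polr3a (log2 fold change -0.36, edgeR adjusted p = 0.0437) was called in only 1 of the 5 fits that left out a library, the one without PRC1 i2KO replicate 3. In that fit, 3 genes of this list rose and 3 fell, and in each of the other 4 fits 1 fell. Of 25 genes of tRNA maturation 4 rose and 1 fell, beside the same shares of all tested genes (median log2 fold change 0.16). Rpp25, a protein subunit of RNase P, had the largest change of this list, rising 6.58-fold from 0.369 and 1.18 CPM to 7.15, 4.61 and 5.84 CPM (log2 fold change 2.72, SE 0.52, edgeR adjusted p = 0.00295), a call made without any 1 library. Hsd17b10, a part of mitochondrial RNase P, rose 1.75-fold from 29.5 and 26.6 CPM to 49.7, 52.5 and 44.5 CPM (edgeR adjusted p = 0.00158). Rtcb, the tRNA ligase, rose from 83.9 and 103 CPM to 124, 124 and 119 CPM (log2 fold change 0.38, edgeR adjusted p = 0.0273; lost without Control replicate 1 and without replicate 1 or 2 of PRC1 i2KO), and Elac1, a tRNA 3′ end nuclease, fell 1.53-fold (log2 fold change -0.62, edgeR adjusted p = 0.0134; lost without Control replicate 3 and without replicate 1 or 2 of PRC1 i2KO). The count that rose was 2 when Control replicate 1 or PRC1 i2KO replicate 2 was left out.

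Among genes near the synthetases in function, Aarsd1, which removes wrongly loaded amino acids from alanine tRNA, rose 1.98-fold, from 10.6 and 14.2 CPM to 20.8, 27.3 and 26.6 CPM (log2 fold change 0.99, SE 0.21, edgeR adjusted p = 0.00502), a call made without any 1 library. The other 5 genes of that list were not called, among them Tarsl2 (log2 fold change 0.56), Ptrh2 (0.52), Dtd1 (-0.15) and Dtd2 (-0.33). When PRC1 i2KO replicate 1 was left out, 2 of these 6 genes rose. The 4 genes that amidate or formylate mitochondrial aminoacyl-tRNA gave 0 calls by edgeR, 1 by DESeq2 and, at an unadjusted p under 0.05, 1 higher and 1 lower: Gatb had 8.49 and 7.12 CPM in Control and 12.3, 11 and 14.4 CPM in PRC1 i2KO (edgeR adjusted p = 0.0546), and Mtfmt had 14.6 and 24.4 CPM and then 11.3, 13.1 and 13.7 CPM (0.0691, and called lower without Control replicate 1). Of 5 genes of selenocysteine tRNA none was called by edgeR or DESeq2, with 1 lower at an unadjusted p under 0.05.

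**Figure D5:**
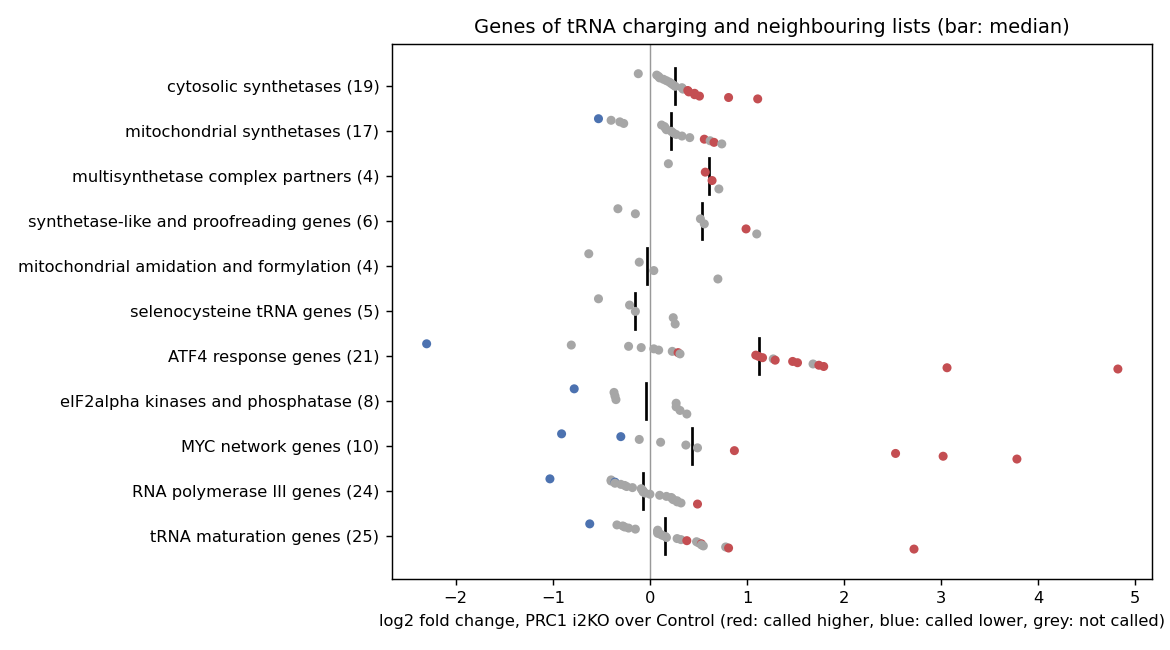
Log2 fold change of PRC1 i2KO over Control for each tested gene of the 2 synthetase classes and of 9 lists of the tRNA pathway and its regulation, with the number tested in brackets; red points were called higher, blue ones lower, grey ones not called, and the bar is the median. The synthetase medians of 0.26 and 0.22 lie near 0, and the median of the ATF4 response list is 1.12.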

How the data were processed

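RNA of sorted hair follicle stem cells was compared between 2 Control and 3 PRC1 i2KO libraries. The authors deposited, for each library, a column of expected counts (estimated reads per gene, 9.06% of genes with a fractional value) and a column of TPM, per the file headers. Per the submitters' processing notes, the tools were DESeq2 1.38.2, RSEM 1.3.3 and STAR 2.7.9a, and the genome was mm39. Which annotation and strand setting were used is not stated in these notes. The column of Control replicate 3 carries the number of its title and not that of its description. Estimated counts are shared between similar genes, and overlapping genes without strand cannot be told apart. Of the members, Iars2, Aars and Cars2 had fractional reads.

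After rounding, counts entered edgeR 4.0.16 under R 4.3.3 (filterByExpr, TMM, quasi-likelihood F test with robust dispersions, genotype as the only term), with Benjamini-Hochberg adjustment over 15665 genes and a threshold of 0.05. The SE is the log2 fold change divided by the square root of F, and intervals are 95%. TPM was tested with limma 3.58.1 on log2(TPM + 1), which understates the change of low genes. Alternatives were DESeq2 1.42.0, other scalings and filters, pseudocounts, libraries left out and a replicate block. Libraries of a group differed beyond sampling noise (chi-square divided by its degrees of freedom, 10.3 to 42.6), so none were merged. On simulated counts of 15665 genes the fit recovered 11.9% of genes changed 1.5-fold, 38.8% changed 2-fold and 68.2% changed 4-fold. Of its 91 calls 12 were false, a share above the threshold of 0.05. Only 67, 67 and 66 genes were changed in the simulation, against 5310 called in the data. Benjamini-Hochberg adjustment is stricter when few genes change, so these shares do not give the recovery in the data.

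The members and gene lists were chosen with earlier results of these data known. Members are named whatever their result, except that some items are not reported here by name or sequence, though they stand in the counts and medians; of lists of over 8 genes, the 4 called genes with the smallest adjusted p were named. Promoter windows came from RefSeq (GRCm38.p6) and were matched by gene, with no coordinates taken across builds.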

Additional observations from a re-analysis of the deposited data

How the results depend on the processing

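The rises of the synthetase genes depended on the unit and on the number of libraries. On TPM, with either pseudocount and with or without a filter, 1 cytosolic gene rose and 0 mitochondrial genes did, with median log2 fold changes of 0.0662 (0.0673 with a pseudocount of 0.1) for cytosolic genes and 0.0454 (0.0646) for mitochondrial ones; over all genes 1866 rose (1881 with a pseudocount of 0.1, 1410 unfiltered). In the 3 deepest libraries 2 cytosolic genes rose, 0 mitochondrial genes rose or fell, the mitochondrial median was 0.19, and over all genes 1736 rose and 1009 fell. Without a filter 1 mitochondrial gene rose, and with library totals the mitochondrial median was 0.25. Leaving out any 1 library, cytosolic rises ran from 3 to 8, mitochondrial rises from 1 to 2, mitochondrial falls from 0 to 1, the cytosolic median from 0.19 to 0.33, the mitochondrial median from 0.18 to 0.26, and over all genes falls from 1359 to 2757. The log2 ratio of summed cytosolic levels was 0.19 on TPM and 0.39 on CPM, and that of mitochondrial TPM was 0.26, or -0.06 without Lars2. DESeq2 made the same call as edgeR for each of the 36 members, and counting Eprs among the cytosolic genes left 7 rises.

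With the replicate number as a block, over the libraries numbered 1 and 3 in both groups, 7 cytosolic genes and 1 mitochondrial gene rose: the calls of Gars (edgeR adjusted p = 0.0617) and Fars2 (0.0636) were lost and that of Sars was gained (0.0489). The labels do not say what the numbers share, and same-numbered libraries deviated together with a correlation of 0.15 over 2 pairs.

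Members that were not called turned below 0 in some fits. On TPM they included Wars (-0.128, or -0.131 with a pseudocount of 0.1), Tars (-0.0744, or -0.0756), Aars2 (-0.291, or -0.306), Lars (-0.335, or -0.341), Dars (-0.136, or -0.14), Iars2 (-0.00988, or -0.0101), Tars2 (-0.0571, or -0.0582) and Yars (-0.0356, or -0.036). Leaving out any 1 library, Wars ran from -0.0539 to 0.219, and in the deepest libraries it was at -0.0134 and Dars at -0.0163. The cause of these differences was not tested. Pars2, with as few as 33 reads in a library, did not enter the stricter filter.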
